A study of Mus musculus with 15 samples.

Results

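The chromatin modifiers and remodellers are 54 mouse genes that write, erase or read out marks on histones and DNA or move nucleosomes. They were chosen by name, and the members are the rows of the deposited expression table whose Ensembl transcript maps to a listed gene. All 54 genes had a row, out of 11960 genes in the table, and all 54 were tested. Mouse dental mesenchymal cells (mDMCs) of the ICR strain were taken from molar germs at embryonic day 14.5, when the dental mesenchyme carries the capacity to direct tooth formation. RNA-seq gave 3 libraries of freshly isolated mDMCs (called 0 h), 2 of cells kept 12 h in FBS-supplemented medium, 3 each of cells kept 24, 36 or 48 h in it, and 1 of undissociated dental mesenchymal tissue. No group carried an allele or agent other than the culture itself. The mesenchyme had been freed of epithelium with dispase, dissociated with trypsin and sieved, so the cells were an unsorted preparation, and the tissue, with 1 library, allows no test. The labels do not say that libraries of one time came from separate litters or cultures, and the study's methods speak of independent experiments only in general, so the p-values measure only the spread between these libraries.

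DNA in the nucleus is wound around histones, and the tails of those histones carry acetyl and methyl groups. Acetyltransferases and the H3K4 methyltransferases are known for active promoters and enhancers, whereas deacetylases and the Polycomb complexes are known for keeping lineage genes silent. SWI/SNF and CHD complexes use ATP to shift nucleosomes, and the Dnmt and Tet enzymes place and oxidize methyl groups on cytosine. In embryonic tissues these enzymes are known to help hold a cell's identity while it divides.

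The values are whole-number expression scores on a normalized scale that gives every library a median of 721, and the sequencing depth behind them is unknown. Each gene is listed through 1 transcript, and whether its score belongs to the gene or to that transcript could not be told. For 8 of the 54 genes the listed transcript is not annotated as protein coding (Ep300, Kat2a, Kat2b, Hdac3, Setdb1, Dnmt3a, Arid1b and Chd7). That is 14.8% of the genes, against 12.1% of all transcripts. Scores are not per length, so levels were compared only for one gene across libraries. A change in a bulk library may come from fewer cells of a type or from less RNA per cell, and these cannot be told apart.

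Some libraries and cell types moved with the groups. The dental mesenchyme list (11 genes, all with a row, among them Msx1, Pax9 and Pdgfra) summed to 134164 to 157007 at 0 h and 135466 to 142634 at 48 h, with 7 of its genes lower at 48 h and 1, Vim, which is common to many mesenchymal cells, higher. Without Vim the other 10 summed to 105470 to 120672 at 0 h and 64938 to 72106 at 48 h, and Pdgfra and Pax9 changed by -2.69 and -2.37 on the log2 scale. The red cell list (5 of 6 genes with a row, mainly globins) summed to 84024 to 131304 at 0 h and to 42 to 143 at 48 h. The endothelial list (6 of 6) summed to 7504 to 8808 at 0 h and 1872 to 3459 at 48 h. One of its genes, Flt1, was higher at 48 h (1.25 on the log2 scale), and the other 5 summed to 6827 to 8013 at 0 h and 486 to 851 at 48 h. The macrophage list (3 of 7) summed to 733 to 978 and 247 to 313, and the dental epithelium list (7 of 8) to 1483 to 13851 and 361 to 1211. The highest epithelial sum was that of 0 h replicate 1, and without this library 42 of the 54 genes were lower and 3 higher at 48 h. A list of 14 proliferation genes summed to 86442 to 96030 at 0 h and to 38638 to 44361 at 48 h, and 13 of the 14 were lower at 48 h. The glia and neuron list (1 of 4 with a row) went from 77 to 258 up to 301 to 1005, and the single gene of the skeletal muscle list with a row (of 3) had 31 to 291 and 159 to 693, ranges that overlap, and was not called. Defining markers with no row included Shh, Aif1, C1qb, Fcgr3, Tyrobp, Sox10, Myod1 and Myf5. The part of these shifts in the results on chromatin genes was not tested.

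A pair of libraries stood apart from their group in chromatin genes with long transcripts. Among the 19 genes whose listed transcript exceeds 6 kb, 0 h replicate 3 lay above the mean of the other 0 h libraries by a median of 0.70 on the log2 scale, and 12 h replicate 1 lay above 12 h replicate 2 by 0.78. For all 1367 transcripts of that length the same medians were 0.19 and 0.24, and for transcripts under 1.5 kb they were -0.15 and -0.19. The 54 genes have long transcripts, with a median exonic length of 4748 bases against 2886 for the table and 20 exons against 8. Of the 54, 35 were higher in 0 h replicate 3 than in both of its mates (64.8%, against 34.1% of all transcripts). At least a 2-fold excess of 12 h replicate 1 over replicate 2 was seen in 9 genes (16.7%, against 2.37%). Some results that rest on these libraries are also given without them, and the tissue differences are not.

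**Figure D1:**
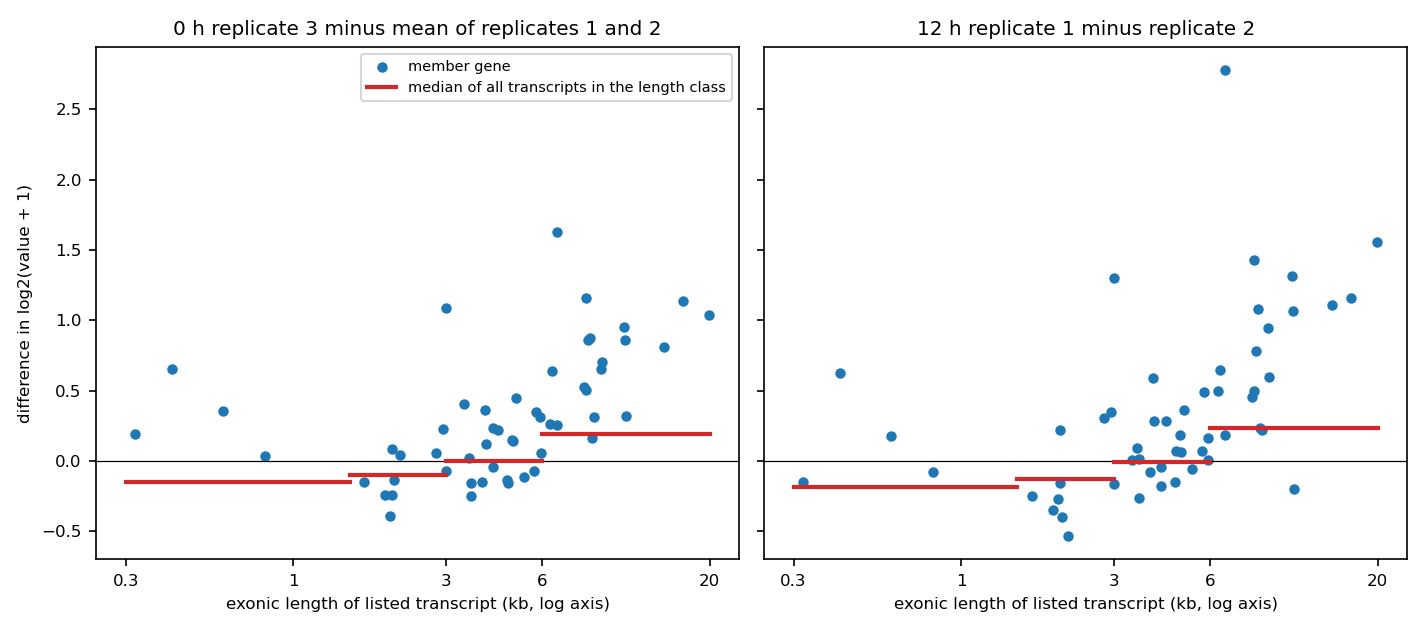
Difference in log2(value + 1) between 0 h replicate 3 and the mean of its mates (left) and between the 12 h replicates (right) against exonic length of the listed transcript in kb on a log axis; points are the 54 chromatin genes and red lines the median of all transcripts in 4 length classes. Genes above 6 kb lie mostly above 0 in both panels, with medians of 0.70 and 0.78 against 0.19 and 0.24 for all transcripts of that length.

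Most of the 54 genes were lower in cultured than in freshly isolated mDMCs. At 12 h, 24 genes were lower and 3 higher than in freshly isolated mDMCs, by limma with a Benjamini-Hochberg adjusted p below 0.05 over all 12079 transcripts tested. The lower and higher genes numbered 40 and 3 after 24 h, 40 and 5 after 36 h, and 42 and 3 after 48 h. Over all transcripts the calls were nearly even in direction: 28.3% lower and 29.9% higher after 12 h, 31.8% and 35.0% after 24 h, 34.0% and 36.0% after 36 h, and 34.0% and 37.1% after 48 h. The 42 genes that fell by 48 h were 77.8% of the 54, and the 3 that rose were 5.56%. The median log2 change of the 54 genes went from -0.33 after 12 h to -0.58 and -0.60 after 24 and 36 h and -0.65 after 48 h, while the median over all transcripts lay between 0.02 and 0.03. By the threshold of the study, an unadjusted p below 0.05 with a change above 2-fold, 12 genes were lower and 1 was higher at 48 h, against 15.9% lower and 16.2% higher of all transcripts. Most of the falls were thus smaller than 2-fold.

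The fall at 48 h was also seen without 0 h replicate 3, where 37 genes were lower and 3 higher, with a median of -0.56. At 12 h the count of lower genes was 28 without 12 h replicate 1 and 15 without 12 h replicate 2, where 5 were higher. Of the 45 genes called at 48 h, 38 were called whichever single library was left out. The other 7 were Crebbp, Kmt2a, Kmt2d, Ehmt2, Kdm5a, Kdm6b and Smarcb1. Long transcripts as a whole were lower at 48 h, with a median of -0.27 for all those above 6 kb and 0.17 for those under 1.5 kb. In every length class the chromatin genes lay below the median of all transcripts (0.17, 0.15, -0.06 and -0.27 from the shortest class to the longest). Their medians were -0.67 under 1.5 kb (4 genes), -0.42 from 1.5 to 3 kb (10), -0.62 from 3 to 6 kb (21) and -0.91 above 6 kb (19), where leaving out 0 h replicate 3 gave -0.59 against -0.20 for all transcripts. Length here is that of the listed transcript, which may not be what the score measures. These classes therefore cannot separate the fall from an effect of length, whose part was not tested.

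**Figure D2:**
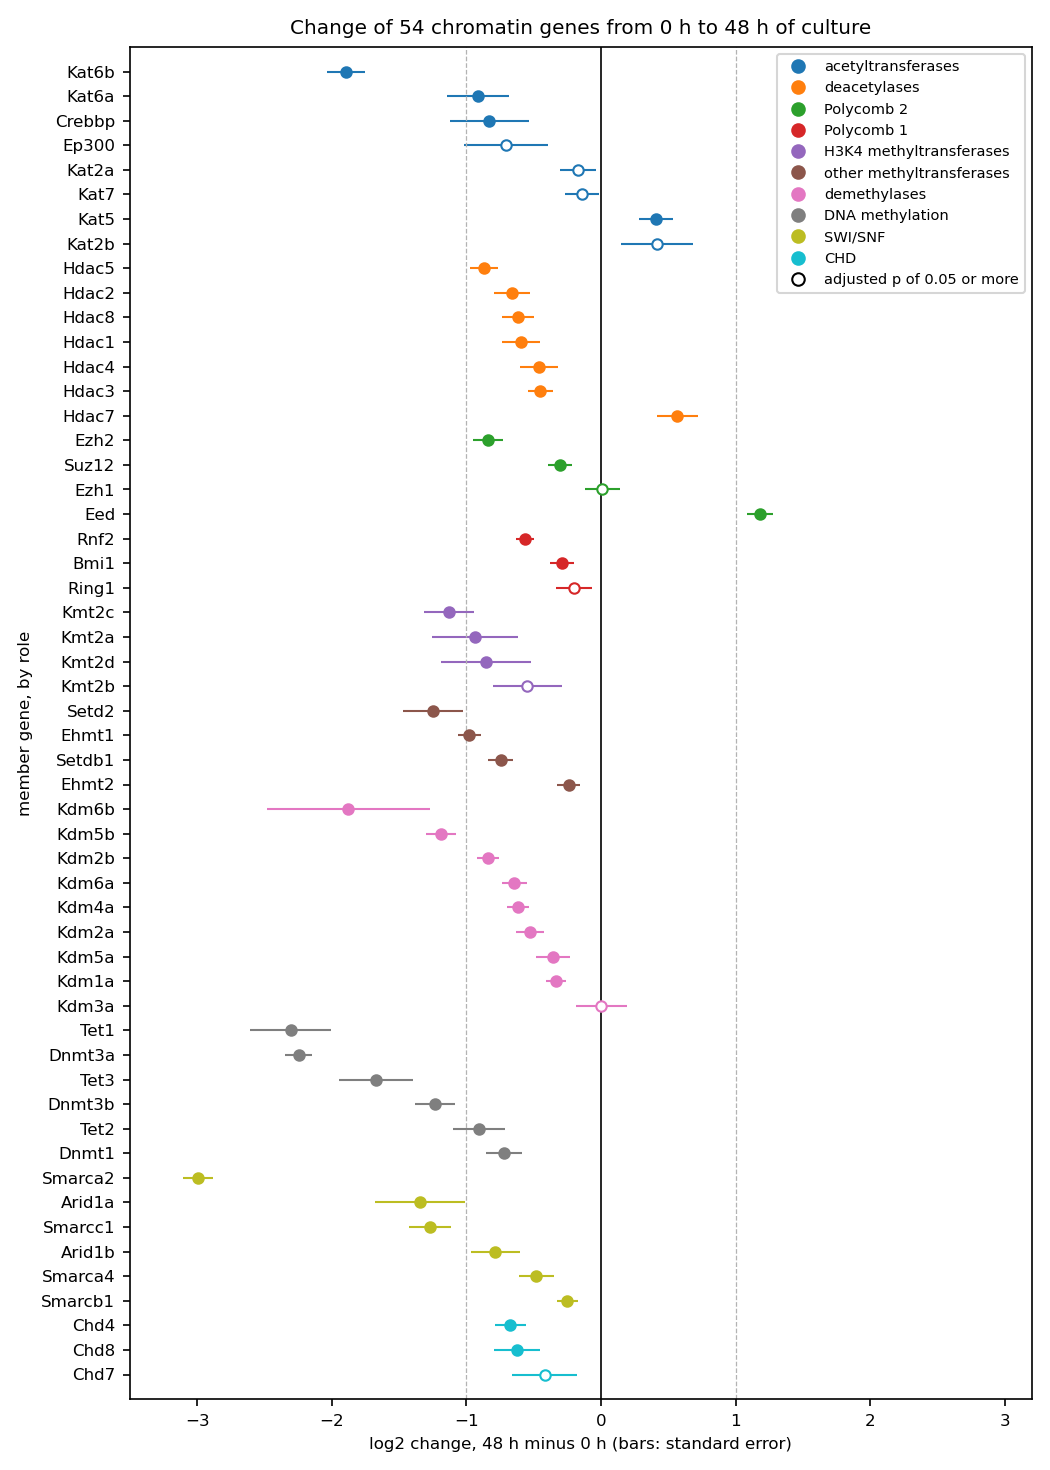
Log2 change from 0 h to 48 h of culture with its standard error for each of the 54 genes, ordered within 10 functional roles shown by colour; open points have an adjusted p of 0.05 or more, and dashed lines mark a 2-fold change. Points lie left of 0 for most genes, Smarca2 lies lowest at -2.99 and Eed highest at 1.18.

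The time courses differed among genes. There were 20 genes lower than at 0 h at every time of culture: Kat6b, Hdac3, Hdac8, Ezh2, Rnf2, Setdb1, Ehmt1, Ehmt2, Kdm1a, Kdm2b, Kdm4a, Kdm5a, Kdm5b, Kdm6a, Dnmt3a, Dnmt3b, Tet1, Smarca2, Smarcc1 and Arid1b. They are 37% of the 54, and 21.0% of all transcripts had the same pattern. Of these 20, 10 were lower at every time whichever single library was left out, and the other 10 were Arid1b, Ehmt1, Ehmt2, Ezh2, Kdm1a, Kdm5a, Kdm6a, Setdb1, Smarcc1 and Tet1. Hdac7 and Eed were higher at every time, as were 23.0% of all transcripts. Ep300, Kat2a, Kat7 and Kmt2b were called at none, as were 14.1% of all transcripts, and Kdm3a was called lower at 12 h and higher at 36 h. In 19 genes all 11 cultured libraries lay below all 3 libraries at 0 h, and in 2 genes all lay above. The first pattern held for 22.6% of all transcripts and the second for 24.6%.

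**Figure D3:**
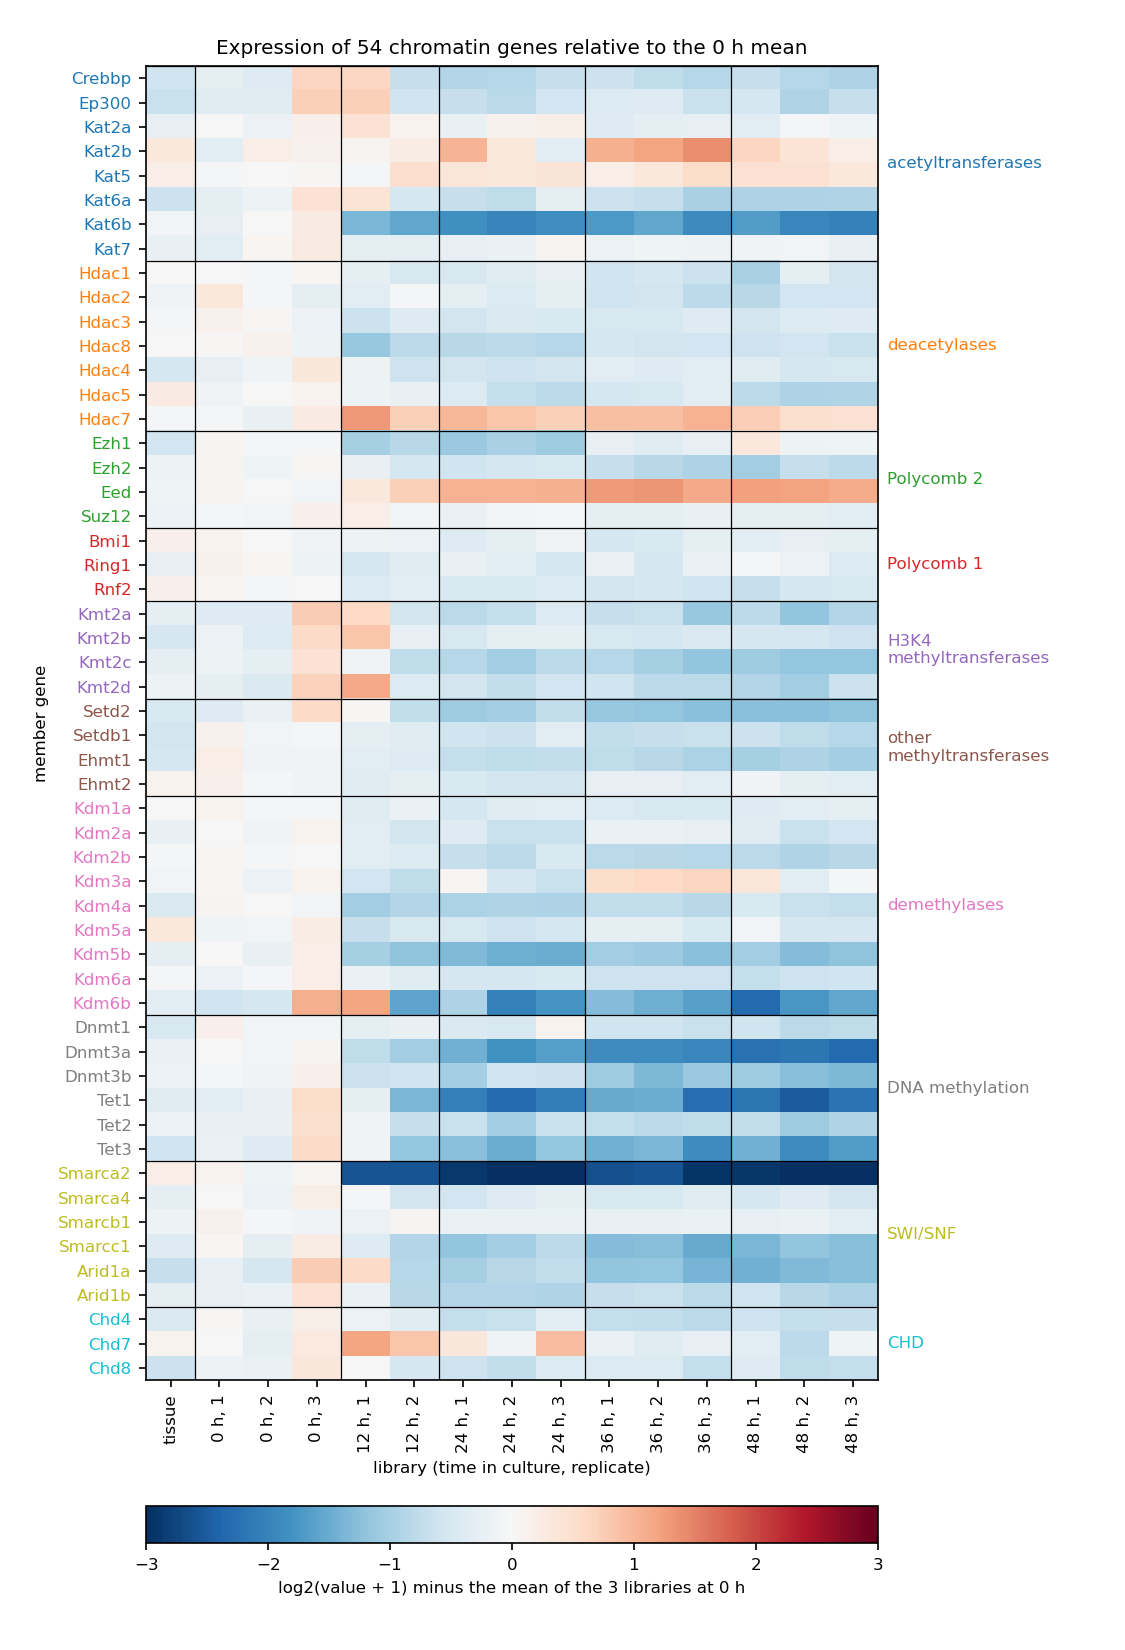
Log2(value + 1) of each gene in each library minus its mean at 0 h, in blue where lower and red where higher, with the tissue at the left, then 0, 12, 24, 36 and 48 h, and genes grouped by role. Blue covers most of the cultured libraries, Eed and Hdac7 are red in all of them, and 0 h replicate 3 and 12 h replicate 1 appear redder than their mates in many genes.

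SWI/SNF held the largest fall of the 54 genes at 48 h, that of Smarca2, beside small ones. SWI/SNF complexes carry one of a pair of alternative motors, Smarca2 (BRM) or Smarca4 (BRG1). Smarca2 (chromosome 19, 26605052 to 26778321, plus strand) had scores of 5399, 4599 and 5179 (0 h), 844 and 842 (12 h), 674, 518 and 580 (24 h), 810, 834 and 660 (36 h), 669, 617 and 616 (48 h) and 5804 (tissue). Every cultured library lay far below every fresh one. Most of the fall was present at 12 h, and from 12 to 48 h Smarca2 fell by 0.41 more on the log2 scale (adjusted p = 0.0195), a call lost without 12 h replicate 1 (adjusted p = 0.0868), 12 h replicate 2 (adjusted p = 0.0672), 48 h replicate 2 (adjusted p = 0.0503) or 48 h replicate 3 (adjusted p = 0.0502). Its score averaged 5059 ± 413 in fresh cells and 634 ± 30.3 after 48 h (SD, n = 3 each). On the log2 scale Smarca2 fell by 2.58 ± 0.13 (SE, adjusted p = 7.53e-09) at 12 h and fell by 2.99 ± 0.11 (SE, adjusted p = 2.53e-10), or 7.96-fold, at 48 h. For Smarca4 (chromosome 9, 21616169 to 21704217, plus strand) the scores were 5142, 4494 and 5757 (0 h), 4915 and 3478 (12 h), 3438, 3919 and 4262 (24 h), 3681, 3681 and 3945 (36 h), 3564, 3919 and 3500 (48 h) and 4238 (tissue). All 48 h libraries lay below the 0 h libraries, and Smarca4 fell by 0.48 ± 0.13 (SE, adjusted p = 0.00465), a much smaller change than that of its paralog.

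The other SWI/SNF subunits fell as well, and all 6 of the group were lower at 24, 36 and 48 h (31.8%, 34.0% and 34.0% of all transcripts). Smarcc1 (BAF155), a scaffold subunit, had scores of 3614, 2846 and 4089 (0 h), 2646 and 1887 (12 h), 1542, 1723 and 2025 (24 h), 1417, 1443 and 1210 (36 h), 1353, 1537 and 1435 (48 h) and 2663 (tissue). All cultured libraries were below those at 0 h, and Smarcc1 fell by 1.27 ± 0.15 (SE, adjusted p = 8.30e-06) by 48 h. For Arid1a, the large subunit that defines the canonical BAF complex, the scores were 1283, 1074 and 2616 (0 h), 2280 and 846 (12 h), 766, 861 and 918 (24 h), 673, 685 and 587 (36 h), 568, 613 and 630 (48 h) and 948 (tissue). The value of 0 h replicate 3 was more than that of its mates combined, and 12 h replicate 1 overlapped the 0 h range. Arid1a fell by 1.34 ± 0.33 (SE, adjusted p = 0.00277) at 48 h, and between -1.60 and -0.96 when single libraries were left out. Its paralog Arid1b fell by 0.78 ± 0.18 (SE, adjusted p = 0.00163), and its listed transcript is short and non-coding. The core subunit Smarcb1 fell by 0.25 ± 0.08 (SE, adjusted p = 0.0138), a call lost without 0 h replicate 1 (-0.18, adjusted p = 0.064) or without 48 h replicate 3 (-0.22, adjusted p = 0.0512).

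**Figure D4:**
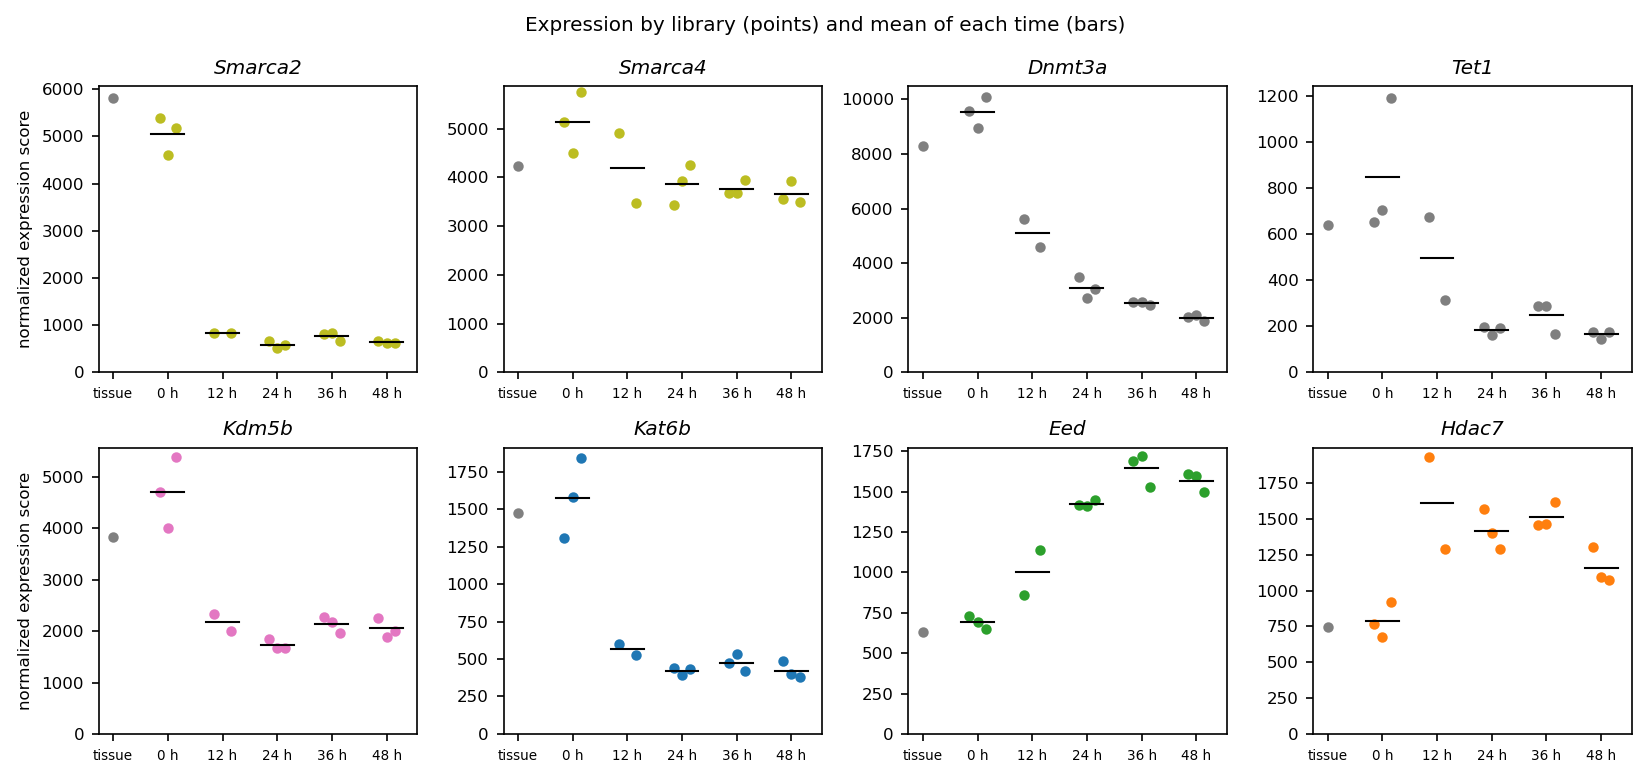
Normalized expression scores of 8 genes in each library (points) with the mean of each time (bars) on linear axes from 0; the tissue is the grey point at the left of each panel. Smarca2, Dnmt3a, Kdm5b and Kat6b lie below the 0 h range in all cultured libraries, Eed and Hdac7 above it, and Smarca4 and Tet1 overlap it at 12 h.

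The enzymes of DNA methylation fell together, with 3 of 6 lower at 12 h (5 without 12 h replicate 1 and 2 without 12 h replicate 2), 5 at 24 h and all 6 at 36 and 48 h. The group had the lowest median of the 10 roles at 48 h, -1.45. Dnmt3a, a methyltransferase that sets new marks, is listed through a retained-intron transcript (chromosome 12, 3806007 to 3838814, plus strand) with scores of 9591, 8938 and 10081 (0 h), 5605 and 4610 (12 h), 3486, 2725 and 3052 (24 h), 2596, 2588 and 2453 (36 h), 2032, 2104 and 1889 (48 h) and 8281 (tissue). The libraries stepped down with time, and no cultured library reached the 0 h range. Dnmt3a fell by 0.91 ± 0.11 (SE, adjusted p = 1.93e-05) at 12 h, fell by 1.63 ± 0.10 (SE, adjusted p = 2.43e-08) at 24 h and fell by 2.25 ± 0.10 (SE, adjusted p = 1.05e-09) at 48 h on the log2 scale. Its score averaged 9537 ± 573 in fresh cells and 2008 ± 109 after 48 h (SD, n = 3 each). Dnmt3b, the related enzyme, fell by 1.23 ± 0.15 (SE, adjusted p = 9.11e-06) at 48 h, and its scores were low, between 256 and 305 at 0 h and between 106 and 131 at 48 h. The maintenance enzyme Dnmt1 fell by 0.72 ± 0.13 (SE, adjusted p = 0.000325) at 48 h, and its log2 change at 24 h was -0.27 (adjusted p = 0.0847), which passed without 24 h replicate 3 (-0.46, adjusted p = 0.00103). Dnmt1 is known to be higher in dividing cells, and the sum over the proliferation genes was also lower at 48 h. The part of that difference was not tested.

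The Tet dioxygenases, which start the removal of methyl groups, also fell. Tet1 (chromosome 10, 62804577 to 62899118, minus strand) had scores of 654, 703 and 1189 (0 h), 675 and 313 (12 h), 198, 163 and 193 (24 h), 286, 290 and 168 (36 h), 177, 143 and 176 (48 h) and 640 (tissue). One of the 12 h libraries lay within the 0 h range, and all later libraries lay below it. Tet1 fell by 2.15 ± 0.30 (SE, adjusted p = 3.40e-05) at 24 h and fell by 2.31 ± 0.30 (SE, adjusted p = 1.52e-05) at 48 h, with a range of -2.47 to -2.04 when single libraries were left out. For Tet3 the scores were 1730, 1519 and 2947 (0 h), 1852 and 882 (12 h), 826, 710 and 879 (24 h), 722, 768 and 531 (36 h), 725, 535 and 615 (48 h) and 1312 (tissue). Again 12 h replicate 1 fell inside the 0 h range and 12 h replicate 2 below it, and Tet3 fell by 1.67 ± 0.28 (SE, adjusted p = 0.000133) by 48 h. Tet2 fell by 0.91 ± 0.20 (SE, adjusted p = 0.00105).

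Polycomb repressive complex 2, the H3K27 methyltransferase, was split between its subunits. Eed, the subunit that binds the mark, rose at every time, while Ezh2, the main catalytic subunit, fell at every time, although its call at 12 h was lost without 0 h replicate 1 (-0.33, adjusted p = 0.0538) or 12 h replicate 2 (-0.22, adjusted p = 0.21). Eed (chromosome 7, 89954654 to 89980983, minus strand) had scores of 733, 692 and 649 (0 h), 862 and 1139 (12 h), 1416, 1413 and 1448 (24 h), 1687, 1719 and 1530 (36 h), 1609, 1595 and 1499 (48 h) and 632 (tissue). Each step from 0 h to 12 h and on to 24 h moved every library above those before. Eed rose by 0.52 ± 0.11 (SE, adjusted p = 0.00122) at 12 h and rose by 1.18 ± 0.10 (SE, adjusted p = 2.46e-07), or 2.27-fold, at 48 h. Its exons overlap those of an opposite-strand gene over 12.6% of their length, and strand was not stated for the counting. Ezh2 had scores of 1921, 1658 and 1858 (0 h), 1549 and 1253 (12 h), 1191, 1275 and 1290 (24 h), 1115, 1023 and 951 (36 h), 879, 1112 and 1054 (48 h) and 1635 (tissue). All cultured libraries lay below the 0 h libraries, and Ezh2 fell by 0.84 ± 0.11 (SE, adjusted p = 1.64e-05) at 48 h. Ezh2 is another gene known to follow cell division, and the proliferation sum was also lower at 48 h than at 0 h. The part of that difference in the Ezh2 fall was not tested.

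Ezh1, the alternative catalytic subunit, dipped and returned. Its scores were 378, 342 and 348 (0 h), 177 and 200 (12 h), 163, 180 and 168 (24 h), 298, 278 and 302 (36 h), 442, 318 and 326 (48 h) and 238 (tissue). All 12, 24 and 36 h libraries lay below the 0 h range. At 48 h replicate 1 (442) lay above that range and the other libraries (318 and 326) below it. Ezh1 fell by 0.92 ± 0.15 (SE, adjusted p = 0.000153) at 12 h and fell by 1.06 ± 0.13 (SE, adjusted p = 1.12e-05) at 24 h, and its change at 48 h was 0.01 ± 0.13 (SE, adjusted p = 0.954). Without 48 h replicate 1 the 48 h change was -0.143 (adjusted p = 0.268). The step from 24 to 36 h was a rise of 0.78 ± 0.13 (SE, adjusted p = 0.00231). The fourth subunit, Suz12, fell by 0.30 ± 0.09 (SE, adjusted p = 0.00718) at 48 h.

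Polycomb repressive complex 1, which ubiquitinates H2A, moved little. At 48 h 2 of its 3 members were lower and none was higher (34.0% and 37.1% of all transcripts). The catalytic subunit Rnf2 (RING1B) had scores of 2385, 2245 and 2365 (0 h), 1748 and 1843 (12 h), 1694, 1690 and 1742 (24 h), 1578, 1612 and 1552 (36 h), 1444, 1620 and 1675 (48 h) and 2608 (tissue). All cultured libraries lay below those at 0 h, and Rnf2 fell by 0.56 ± 0.07 (SE, adjusted p = 8.97e-06). The Bmi1 scores were 1575, 1447 and 1353 (0 h), 1306 and 1292 (12 h), 1115, 1190 and 1353 (24 h), 1034, 1058 and 1180 (36 h), 1165, 1228 and 1184 (48 h) and 1627 (tissue). A small fall of Bmi1 was called at 48 h, -0.29 ± 0.09 (SE, adjusted p = 0.0104), with all 48 h libraries below the 0 h range. Ring1, the paralog of Rnf2, had scores of 437, 410 and 358 (0 h), 281 and 313 (12 h), 343, 323 and 283 (24 h), 351, 283 and 351 (36 h), 391, 357 and 302 (48 h) and 336 (tissue). It was lower at 12 h, -0.43 ± 0.15 (SE, adjusted p = 0.0259), a call lost without 0 h replicate 1 (adjusted p = 0.0752), 0 h replicate 2 (adjusted p = 0.0616) or 12 h replicate 1 (adjusted p = 0.149), and its change at 48 h was -0.20 ± 0.13 (SE, adjusted p = 0.197). The listed Rnf2 transcript overlaps an opposite-strand gene over 19.3% of its exons.

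Of the 8 acetyltransferases, 3 were lower and 1 higher at 48 h, and the share lower (37.5%) was near the 34.0% of all transcripts. Kat6b (MORF), a MYST-family enzyme, is listed through a transcript of 606 bases (chromosome 14, 21481434 to 21517111, plus strand) and had scores of 1311, 1580 and 1840 (0 h), 600 and 530 (12 h), 439, 392 and 432 (24 h), 476, 532 and 418 (36 h), 486, 399 and 380 (48 h) and 1476 (tissue). Both 12 h libraries were already low, and fresh and cultured libraries did not overlap. Kat6b fell by 1.47 ± 0.15 (SE, adjusted p = 5.07e-06) at 12 h and fell by 1.90 ± 0.14 (SE, adjusted p = 8.63e-08) at 48 h. Its paralog Kat6a (MOZ) had scores of 1993, 2162 and 3267 (0 h), 3222 and 1675 (12 h), 1497, 1417 and 1955 (24 h), 1533, 1497 and 1228 (36 h), 1273, 1273 and 1296 (48 h) and 1552 (tissue). At 12 h 1 library lay within the 0 h range and all later libraries lay below it, and Kat6a fell by 0.91 ± 0.23 (SE, adjusted p = 0.00289). Kat2b (PCAF) had scores of 292, 417 and 398 (0 h), 387 and 429 (12 h), 744, 456 and 290 (24 h), 763, 829 and 967 (36 h), 567, 485 and 419 (48 h) and 456 (tissue). It stood above the 0 h libraries in all 3 libraries at 36 h, where it rose by 1.22 ± 0.27 (SE, adjusted p = 0.00118), and its change at 48 h was 0.42 ± 0.27 (SE, adjusted p = 0.177).

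Among the other acetyltransferases, Kat5 (TIP60) rose by 0.41 ± 0.13 (SE, adjusted p = 0.0108) at 48 h, with 19.8% of its exonic bases shared with an opposite-strand gene. The general coactivator Crebbp fell by 0.83 ± 0.29 (SE, adjusted p = 0.0215). That call was lost without 0 h replicate 3 (-0.51, adjusted p = 0.109), without 48 h replicate 2 (adjusted p = 0.0513) or without 48 h replicate 3 (adjusted p = 0.0579). The related Ep300 changed by -0.70 ± 0.31 (SE, adjusted p = 0.0592). It passed without 0 h replicate 1 (-0.89, adjusted p = 0.0364) or 0 h replicate 2 (-0.88, adjusted p = 0.0394). Without 0 h replicate 3 and 12 h replicate 1 together the Ep300 change was smaller, -0.34. Kat2a changed by -0.17 ± 0.13 (SE, adjusted p = 0.267) and Kat7 by -0.14 ± 0.13 (SE, adjusted p = 0.342), and Kat7 was lower without 0 h replicate 1 (-0.30, adjusted p = 0.0186).

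At 48 h 6 of the 7 deacetylases among the 54 genes were lower, and Hdac7, a class IIa enzyme that acts mainly as a corepressor, was higher. The share lower was 85.7%, against 34.0% of all transcripts, and 37.1% of all transcripts were higher. Hdac7 (chromosome 15, 97792664 to 97831494, minus strand) had scores of 768, 673 and 922 (0 h), 1936 and 1289 (12 h), 1567, 1399 and 1289 (24 h), 1460, 1465 and 1622 (36 h), 1307, 1097 and 1076 (48 h) and 744 (tissue). All cultured libraries lay above all fresh ones. Hdac7 rose by 1.02 ± 0.17 (SE, adjusted p = 0.000236) at 12 h, rose by 0.95 ± 0.15 (SE, adjusted p = 9.77e-05) at 36 h and rose by 0.56 ± 0.15 (SE, adjusted p = 0.00487) at 48 h. In contrast Hdac5, of the same class, had scores of 1910, 2089 and 2203 (0 h), 1852 and 1769 (12 h), 1557, 1251 and 1199 (24 h), 1425, 1475 and 1639 (36 h), 1201, 1086 and 1100 (48 h) and 2432 (tissue). All cultured libraries of Hdac5 lay below the 0 h range, and it fell by 0.87 ± 0.10 (SE, adjusted p = 6.01e-06) at 48 h. The X-linked class I enzyme Hdac8 had scores of 310, 327 and 269 (0 h), 137 and 175 (12 h), 169, 174 and 166 (24 h), 208, 204 and 203 (36 h), 196, 203 and 189 (48 h) and 305 (tissue). It was lowest at 12 and 24 h, and it fell by 0.95 ± 0.13 (SE, adjusted p = 5.75e-05) at 12 h and fell by 0.62 ± 0.12 (SE, adjusted p = 0.000484) at 48 h. The class I enzymes Hdac1, Hdac2 and Hdac3 changed by -0.60, -0.66 and -0.45 at 48 h, and class IIa Hdac4 by -0.46, with adjusted p-values between 0.000718 and 0.00998.

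Methyltransferases for H3K4 numbered none of 4 called at 12 h and 1, 2 and 3 at the later times in turn, all lower. Over all transcripts the share lower was 28.3%, 31.8%, 34.0% and 34.0% in the same order. The 12 h count rests on single libraries, with 1 lower without 12 h replicate 1 (Kmt2c, -0.75, adjusted p = 0.0146) and 2 higher without 12 h replicate 2. Kmt2c (MLL3), an enhancer enzyme, had scores of 1763, 1635 and 2651 (0 h), 1828 and 1170 (12 h), 1082, 958 and 1122 (24 h), 1089, 981 and 870 (36 h), 941, 879 and 881 (48 h) and 1605 (tissue). The 12 h replicate 1 library lay in the 0 h range and all others in culture below it, and Kmt2c fell by 1.13 ± 0.18 (SE, adjusted p = 0.00011). Kmt2a (MLL1) had scores of 1040, 1040 and 2289 (0 h), 2057 and 919 (12 h), 768, 819 and 1022 (24 h), 837, 847 and 611 (36 h), 791, 599 and 739 (48 h) and 1105 (tissue). In Kmt2a the value of 0 h replicate 3 exceeded the sum of its mates, and the call at 48 h, -0.94 ± 0.32 (SE, adjusted p = 0.0181), was lost without it (-0.56, adjusted p = 0.0896) and without 48 h replicate 2 (adjusted p = 0.0632). Kmt2d (MLL4) had scores of 1204, 1073 and 2335 (0 h), 3199 and 1089 (12 h), 988, 867 and 978 (24 h), 949, 842 and 837 (36 h), 791, 701 and 918 (48 h) and 1301 (tissue). The 12 h libraries differed by 1.55 on the log2 scale, and the 48 h call, -0.85 ± 0.33 (SE, adjusted p = 0.0354), was lost without 0 h replicate 3 (-0.51, adjusted p = 0.172), 48 h replicate 1 (adjusted p = 0.073) or 48 h replicate 2 (adjusted p = 0.0995). Kmt2b changed by -0.55 ± 0.25 (SE, adjusted p = 0.0707), and passed without 0 h replicate 2 (-0.75, adjusted p = 0.0272). Without 0 h replicate 3 and 12 h replicate 1 together the Kmt2b change was smaller, -0.26.

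All 4 of the other histone methyltransferases were lower at 24, 36 and 48 h (31.8%, 34.0% and 34.0% of all transcripts). Setd2, which places H3K36me3, had scores of 2764, 3138 and 5344 (0 h), 3702 and 2149 (12 h), 1713, 1757 and 2140 (24 h), 1623, 1614 and 1514 (36 h), 1495, 1495 and 1553 (48 h) and 2619 (tissue). One 12 h library overlapped the 0 h range, and every later library lay below it. Setd2 fell by 1.25 ± 0.22 (SE, adjusted p = 0.000248) at 48 h. Setdb1, an H3K9 enzyme, had scores of 2591, 2235 and 2290 (0 h), 1929 and 1833 (12 h), 1557, 1522 and 1859 (24 h), 1425, 1454 and 1491 (36 h), 1522, 1402 and 1318 (48 h) and 1605 (tissue). Ehmt1 (GLP), another H3K9 enzyme, had scores of 3141, 2556 and 2535 (0 h), 2200 and 2092 (12 h), 1658, 1613 and 1645 (24 h), 1605, 1522 and 1416 (36 h), 1373, 1426 and 1357 (48 h) and 1938 (tissue). Both lay below the 0 h range in every cultured library, and they fell by 0.75 ± 0.09 (SE, adjusted p = 9.13e-06) and fell by 0.98 ± 0.09 (SE, adjusted p = 4.23e-07), respectively. Ehmt2 (G9a), the partner of Ehmt1, fell by 0.24 ± 0.08 (SE, adjusted p = 0.0195), a call lost without 0 h replicate 1 (-0.17, adjusted p = 0.0894), 48 h replicate 2 (adjusted p = 0.0684) or 48 h replicate 3 (adjusted p = 0.0771).

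Of the 9 demethylases, 8 were lower at 12 h, among them Kdm3a but not Kdm6b, and 8 at 24 and at 48 h, among them Kdm6b but not Kdm3a. At 36 h 7 were lower and 1 higher. Without 12 h replicate 2, 5 were lower at 12 h. Kdm5b (JARID1B), which removes methyl groups from H3K4, had scores of 4707, 4001 and 5385 (0 h), 2332 and 2005 (12 h), 1850, 1679 and 1671 (24 h), 2272, 2185 and 1955 (36 h), 2262, 1893 and 2005 (48 h) and 3836 (tissue) (chromosome 1, 134560171 to 134635285, plus strand). All cultured libraries lay below all fresh ones, and Kdm5b fell by 1.11 ± 0.13 (SE, adjusted p = 1.01e-05) at 12 h and fell by 1.19 ± 0.11 (SE, adjusted p = 9.23e-07) at 48 h. Kdm4a, which acts on H3K9 and H3K36, had scores of 5165, 4902 and 4584 (0 h), 2377 and 2632 (12 h), 2507, 2606 and 2586 (24 h), 2913, 2947 and 2719 (36 h), 3537, 3045 and 2979 (48 h) and 3617 (tissue). It was again below the 0 h range throughout, and it fell by 0.96 ± 0.09 (SE, adjusted p = 1.94e-06) at 12 h and fell by 0.62 ± 0.08 (SE, adjusted p = 1.73e-05) at 48 h. Kdm6b (JMJD3), an H3K27 demethylase, had scores of 228, 244 and 732 (0 h), 788 and 114 (12 h), 182, 84 and 101 (24 h), 138, 124 and 110 (36 h), 68, 102 and 116 (48 h) and 277 (tissue). The spread between replicates was wide. Kdm6b fell by 1.88 ± 0.60 (SE, adjusted p = 0.0135) at 48 h, and the call was lost without 0 h replicate 3 (-1.33, adjusted p = 0.0686) or without 48 h replicate 1 (-1.65, adjusted p = 0.0506).

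Among the remaining demethylases, Kdm3a, which acts on H3K9 and responds to hypoxia, was lower at 12 h and higher at 36 h. Its log2 change was -0.66 ± 0.21 (SE, adjusted p = 0.0162) at 12 h and 0.59 ± 0.19 (SE, adjusted p = 0.013) at 36 h, and 0.00 ± 0.19 (SE, adjusted p = 0.996) at 48 h. The call at 12 h was lost without 12 h replicate 2 (-0.57, adjusted p = 0.101) and that at 36 h without 0 h replicate 2 (0.51, adjusted p = 0.0524). At 48 h Kdm2b changed by -0.84, Kdm6a by -0.64, Kdm2a by -0.53 and Kdm1a (LSD1) by -0.33, with adjusted p-values between 1.36e-06 and 0.00168. Kdm2b exons overlap an opposite-strand gene over 17.7% of their length. Kdm5a, the paralog of Kdm5b, fell by 0.36 ± 0.12 (SE, adjusted p = 0.0212) at 48 h, a call lost without 0 h replicate 3 (-0.25, adjusted p = 0.0965), 48 h replicate 2 (adjusted p = 0.0863) or 48 h replicate 3 (adjusted p = 0.0865).

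Of the 3 CHD remodellers, 2 were lower at 24, 36 and 48 h (31.8%, 34.0% and 34.0% of all transcripts) and none at 12 h (28.3%). Without 12 h replicate 1 the 12 h changes of Chd4 and Chd8 were -0.37 (adjusted p = 0.0835) and -0.50 (adjusted p = 0.0804). Chd4, the motor of the NuRD complex, had scores of 12502, 10443 and 13663 (0 h), 10712 and 9409 (12 h), 7406, 7590 and 9597 (24 h), 7406, 7223 and 6934 (36 h), 7905, 7406 and 7501 (48 h) and 8945 (tissue). At 24 h and after, every library lay below the 0 h range, and Chd4 fell by 0.67 ± 0.12 (SE, adjusted p = 0.000182). Chd8 had scores of 2194, 2134 and 3068 (0 h), 2428 and 1723 (12 h), 1584, 1454 and 1822 (24 h), 1834, 1817 and 1469 (36 h), 1850, 1439 and 1479 (48 h) and 1556 (tissue). All 24, 36 and 48 h libraries lay below the 0 h range, and Chd8 fell by 0.62 ± 0.17 (SE, adjusted p = 0.00526). Chd7, a remodeller of neural crest enhancers, had scores of 289, 242 and 361 (0 h), 672 and 524 (12 h), 373, 273 and 557 (24 h), 255, 227 and 247 (36 h), 232, 170 and 267 (48 h) and 318 (tissue). Both 12 h libraries lay above the 0 h range, where Chd7 rose by 1.01 ± 0.27 (SE, adjusted p = 0.0063), a call lost without 12 h replicate 1 (0.83, adjusted p = 0.0656), and its change at 48 h was -0.42 ± 0.24 (SE, adjusted p = 0.139).

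Within culture the steps were smaller. From 12 to 24 h, 1 of the 54 genes rose and 5 fell (4.59% and 3.67% of all transcripts). The riser was Eed (0.52), and the fallers were Hdac5 (-0.45), Ehmt1 (-0.39), Dnmt3a (-0.73), Tet1 (-1.32) and Smarca2 (-0.52). Tet1 had 675 in 12 h replicate 1 and 313 in replicate 2, so the size of its fall rests in part on replicate 1. All 6 calls, that of Eed included, were lost in a fit of only the compared times. The counts of fallers were 1 without 12 h replicate 1, 12 without 12 h replicate 2, 1 without 24 h replicate 2 and 3 without 24 h replicate 3. The median change of the 54 genes, -0.20, was -0.10 without 12 h replicate 1 and -0.37 without 12 h replicate 2, and -0.20 and -0.25 without the named 24 h libraries in turn. A 12 h group of 1 library was assumed to vary like the other times. Over all transcripts, calls from 12 to 24 h numbered 357 without 24 h replicate 2 and 904 without 24 h replicate 3. With all libraries 554 transcripts were higher and 443 lower. From 24 to 36 h, 6 rose and none fell (10.0% and 9.64%): Kat2b, Ezh1, Ehmt2, Kdm2a, Kdm3a and Smarca2. Libraries with the same replicate number deviated together between these times, and with the replicate number as a block the same 6 rose and Chd7 fell (-0.66, adjusted p = 0.0113). The risers numbered 2 without 24 h replicate 2, 24 h replicate 3, 36 h replicate 1 or 36 h replicate 2, 3 without 36 h replicate 3 and 5 to 7 without any other single library. Without 24 h replicate 1 or 24 h replicate 2, 2 genes fell. Over all transcripts, calls in both directions numbered 2522, 1307 and 1078 without 24 h replicate 1, 2 or 3 in turn. They numbered 1128, 1123 and 1706 without 36 h replicate 1, 2 or 3 in turn. With all libraries 1210 transcripts were higher and 1165 lower. From 36 to 48 h no gene was called in either direction by limma (0.00% and 0.0248% of all transcripts), with 8 of the 54 at an unadjusted p below 0.05 and 1 lower without 24 h replicate 1.

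From 12 to 48 h, 4 genes rose and 27 fell (21.2% and 21.0% of all transcripts). The risers were Ezh1 (0.92), Eed (0.66), Kdm3a (0.67) and Kdm4a (0.35). The largest fallers were Tet1 (-1.48), Chd7 (-1.43) and Dnmt3a (-1.34). In these genes 12 h replicate 1 exceeded replicate 2 by 1.11, 0.36 and 0.28 on the log2 scale. The size and rank of the Tet1 fall thus rest in part on 12 h replicate 1. Without 12 h replicate 1, whose long transcripts were high, 7 fell and 2 rose, with the median change of the 54 genes at -0.25 against -0.41 with all libraries. When 0 h replicate 3 was left out as well, 15 fell and 2 rose at the same median, since that library enters only the estimate of the spread here. Without 12 h replicate 2, 29 fell and 5 rose, with a median of -0.49.

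Ratios of related genes within a library show which partner changed more, as a description with no test. The 19 pairs were compared in all 15 libraries. In 3 pairs all cultured libraries lay above all fresh ones: Smarca4/Smarca2, Kat6a/Kat6b and Kdm5a/Kdm5b. In 2 they lay below: Dnmt3a/Dnmt3b and Dnmt3a/Dnmt1. The Smarca4/Smarca2 log2 ratio was 0.02 ± 0.12 in fresh cells and 2.53 ± 0.13 after 48 h (SD, n = 3 each). The Kat6a/Kat6b ratio went from 0.63 ± 0.19 to 1.61 ± 0.20, and Kdm5a/Kdm5b from -0.52 ± 0.14 to 0.31 ± 0.13. The Dnmt3a/Dnmt1 ratio went from -0.25 ± 0.15 to -1.77 ± 0.13, and Dnmt3a/Dnmt3b from 5.12 ± 0.07 to 4.10 ± 0.14. Ezh2/Ezh1 went from 2.34 ± 0.07 to 2.88 ± 0.34 at 12 h (n = 2) and lay at 1.49 ± 0.44 at 48 h. The remaining 14 pairs overlapped over all cultured libraries, and at 48 h 4 of them lay above the 0 h libraries, 4 below and 6 overlapped.

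**Figure D5:**
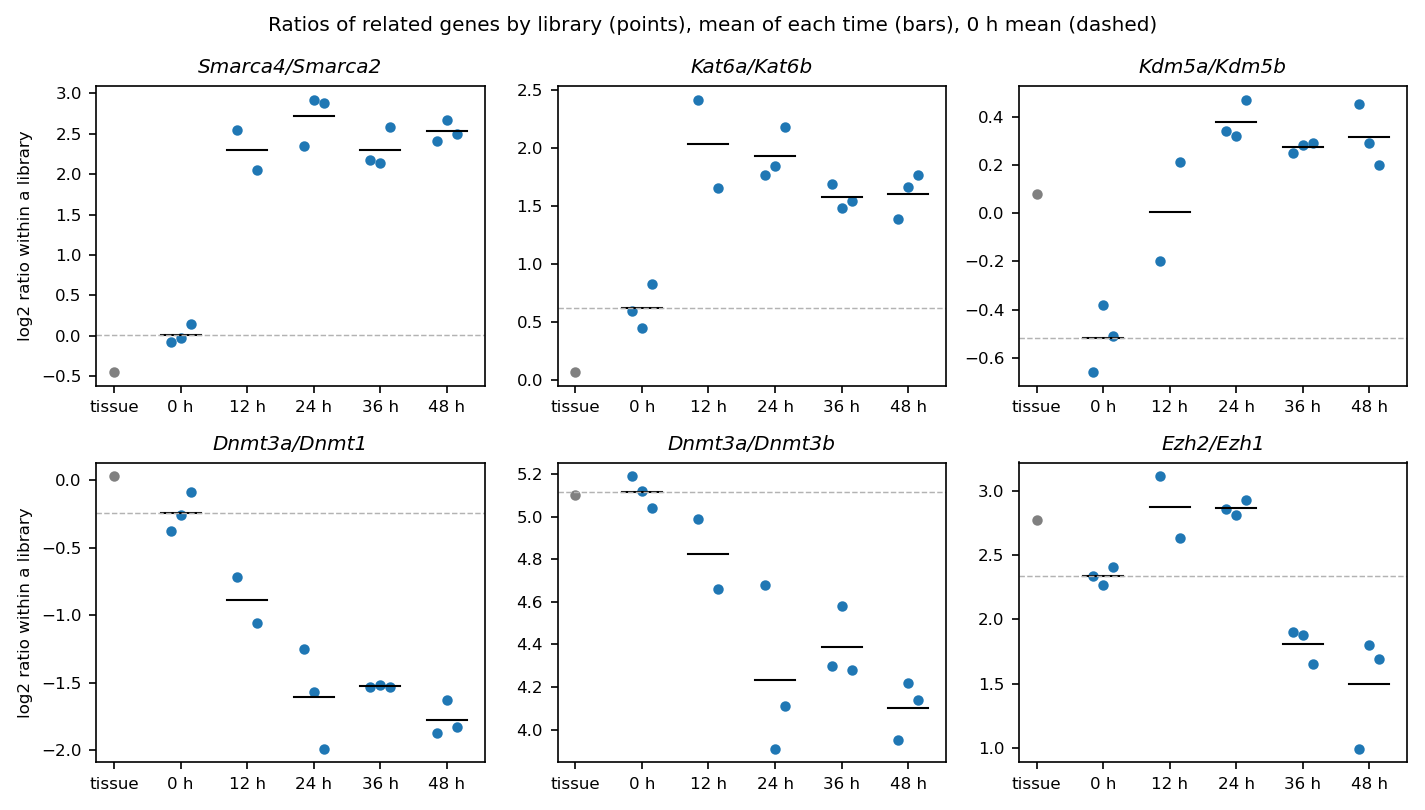
Log2 ratios of 6 pairs of related genes within each library (points), with the mean of each time (bars) and the 0 h mean (dashed line); the tissue is the grey point at the left. Smarca4/Smarca2 goes from 0.02 to 2.53 by 48 h, and Ezh2/Ezh1 goes to 2.88 at 12 h and lies at 1.49 at 48 h.

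In the tissue, no gene of the 54 differed more than 2-fold from the 0 h mean in either direction, against 2.56% of all transcripts higher and 1.22% lower. The log2 difference ranged from -0.69 (Arid1a) to 0.32 (Kat2b), with a median of -0.21 against -0.01 for all transcripts. For Arid1a the tissue score was 948 against 1283, 1074 and 2616 at 0 h, so its difference rests in part on 0 h replicate 3. The tissue score lay below the 0 h range in 31 genes, within it in 16 and above it in 7 genes (57.4%, 29.6% and 13% of the 54), against 32% below and 29.7% above over all transcripts. Smarca2 at 5804 and Dnmt3a at 8281 in the tissue were close to their 0 h scores. The median among transcripts above 6 kb was -0.35 for chromatin genes and -0.16 for all. At this length 0 h replicate 3 lay above its mates by medians of 0.70 and 0.19, and it is part of the 0 h mean. Tissue medians without that library were not computed.

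Promoter sequence (RefSeq, GRCm38.p6, 250 bases before to 50 after each start) was matched for 46 of the 54 genes. For Kmt2c, Rnf2, Chd8, Kat6b and Tet1 the matched start lay 11794 to 198708 bases from that of the listed transcript. The promoters were rich in GC, at a median of 67.2% against 61.3% for 9279 genes of the table, and held a median of 29 CpG sites against 21. Motifs were searched on both strands by their letters: the CCAAT box, the GC box (GGGCGG), CHR (TTTGAA), NRF1 (GCGCATG), AP-1 (TGANTCA), CRE (TGACGTCA), E-box (CACGTG) and E2F (TTTGGCG or TTTCCCG). The GC box was held by 76.1% of the 46 promoters, 66.6% of those of the table and 35.9% of all promoters. CCAAT was held by 39.1%, 39.4% and 37.9%, CHR by 13.0%, 11.8% and 18.1%, and AP-1 by 8.7%, 4.45% and 7.93%. NRF1 was held by 8.7%, 7.33% and 4.04%, E-box by 10.9%, 10.5% and 7.24%, CRE by 0%, 3.36% and 1.88%, and E2F in its first form by 2.17%, 2.72% and 1.59% and in its second by 8.7%, 6.13% and 3.5%. These matches are descriptions of letters, and no factor's binding was measured. Promoters are shown of the genes the results turn on most and whose annotated start lay near that of the listed transcript, with motif matches in capitals (AP-1 and GC boxes in Smarca2, NRF1 and GC boxes in Smarca4, a GC box in Kdm5b and Hdac7, CHR and CCAAT in Eed).
Smarca2 promoter (chr19:26604910-26605209, plus strand): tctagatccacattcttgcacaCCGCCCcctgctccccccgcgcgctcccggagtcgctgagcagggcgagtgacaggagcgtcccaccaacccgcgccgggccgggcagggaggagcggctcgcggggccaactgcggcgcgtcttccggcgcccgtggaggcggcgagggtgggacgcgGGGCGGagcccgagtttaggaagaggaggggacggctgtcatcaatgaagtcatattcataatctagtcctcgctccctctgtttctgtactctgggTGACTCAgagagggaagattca
Smarca4 promoter (chr9:21615919-21616218, plus strand): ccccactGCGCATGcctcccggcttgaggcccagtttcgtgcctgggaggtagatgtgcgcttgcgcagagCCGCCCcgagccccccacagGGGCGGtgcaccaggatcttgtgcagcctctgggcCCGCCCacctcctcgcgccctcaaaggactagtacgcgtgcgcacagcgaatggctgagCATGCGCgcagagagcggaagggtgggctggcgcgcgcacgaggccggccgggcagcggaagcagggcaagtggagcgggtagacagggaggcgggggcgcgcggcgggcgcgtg
Kdm5b promoter (chr1:134559928-134560227, plus strand): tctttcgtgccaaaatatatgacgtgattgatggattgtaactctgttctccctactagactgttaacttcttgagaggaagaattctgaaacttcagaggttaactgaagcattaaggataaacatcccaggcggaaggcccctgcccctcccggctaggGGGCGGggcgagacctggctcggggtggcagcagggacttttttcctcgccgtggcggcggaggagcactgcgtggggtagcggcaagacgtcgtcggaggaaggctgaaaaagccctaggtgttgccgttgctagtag
Eed promoter (chr7:89980927-89981226, minus strand): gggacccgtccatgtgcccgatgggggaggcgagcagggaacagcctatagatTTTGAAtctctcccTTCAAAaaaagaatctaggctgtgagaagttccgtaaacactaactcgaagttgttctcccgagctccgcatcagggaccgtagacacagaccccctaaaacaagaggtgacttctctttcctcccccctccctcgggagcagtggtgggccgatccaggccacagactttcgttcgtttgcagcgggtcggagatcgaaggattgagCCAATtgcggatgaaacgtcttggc
Hdac7 promoter (chr15:97831446-97831745, minus strand): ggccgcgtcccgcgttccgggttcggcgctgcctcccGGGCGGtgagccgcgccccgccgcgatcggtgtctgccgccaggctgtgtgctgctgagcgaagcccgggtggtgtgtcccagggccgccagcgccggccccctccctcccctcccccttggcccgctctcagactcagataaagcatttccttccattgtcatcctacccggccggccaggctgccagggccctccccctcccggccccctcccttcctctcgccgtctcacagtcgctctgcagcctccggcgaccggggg

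Among 150 other chromatin genes with a row (of 156 listed), 90 were lower and 22 higher at 48 h, which is 60% and 14.7% against 34.0% and 37.1% of all transcripts, with a median log2 change of -0.47. By role, SWI/SNF subunits outside the 54 were lower in 14 of 17 genes and higher in 1. The ISWI, CHD and INO80 remodellers were lower in 10 of 15 and higher in 1, and the DNA methylation genes lower in 5 of 6 and higher in 1. For deacetylation the counts were 7 lower and 5 higher of 23, where the share lower (30.4%) was below that of all transcripts, for demethylation 5 and 3 of 10, and for H3K4 complexes 5 and 0 of 10. For Polycomb 2 they were 5 and 2 of 7, for Polycomb 1 8 and 3 of 16, for acetylation 9 and 2 of 14, for histone chaperones of assembly 7 and 1 of 9, for H3K9 and heterochromatin 6 and 1 of 7, and for other methyltransferases 9 and 2 of 16.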

How the data were processed

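RNA-seq values of 15 libraries were used, grouped by the time in the sample labels. The authors removed adaptors, mapped reads with bowtie onto Ensembl transcripts of the mouse (mm10) and used RSEM to estimate expression (1.1.21 in the submitters' processing notes). They deposited a table of 12089 transcripts with normalized expression scores given as whole numbers. The library totals lie between 21357605 and 21365980 and every median is 721, so the libraries had been brought to one distribution, depth is unknown, no counting interval can be given and a change in total RNA cannot be seen. Transcripts were matched to genes with a GRCm38 annotation, 11973 to 11960 genes, and 116 were unmatched. All columns of the table were mapped to samples.

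The study used a count test, which scores do not allow. The 14 libraries of cells entered a single limma fit (limma 3.58.1 under R 4.3.3) of log2(score + 1), which took a mean for each time and eBayes with an intensity trend. It ran over the 12079 transcripts that reached 1 ppm of a library's total in 2 or more libraries. The test is two-sided. Calls used a Benjamini-Hochberg adjusted p below 0.05. The tissue was left out of the fit because it has 1 library. Replicate numbers were checked as pairs by the correlation of deviations from the group means. Only from 24 to 36 h, among the comparisons made, did all 3 pairs exceed 0.1 (0.127 to 0.165). The labels give no pairing, and pairs with different numbers reached 0.477. The limma fit was tested on simulated data with known changes. Python 3.11.15 with numpy 2.4.6 and pandas 2.3.3 gave ranges, ratios and motif counts, and matplotlib 3.10.9 the plots.

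The members, the lists of other genes and markers, and the motifs were chosen with earlier results of these data known. Values in every library are given for up to 3 members of each role with the largest called change from 0 h at any time, and for members called above 2-fold within culture; Smarca4 was added after its values were seen. Other chromatin genes are named for the 5 largest called rises and falls at 48 h, plus Uhrf1 as a gene of dividing cells. Alternatives were a pseudocount of 16, no filter or 1 ppm required in each of the 14 libraries, scaling by trimmed means, no intensity trend, only the compared times, the replicate number as a block, the threshold of the study, each library left out in turn and, chosen after seeing the data, 0 h replicate 3 and 12 h replicate 1 left out together.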

Additional observations from a re-analysis of the deposited data

How the results depend on the processing

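The fall of the 54 genes from 0 h kept its direction in every alternative run: at 48 h, 37 to 44 genes were lower and 3 higher when single libraries were left out. The threshold of the study gave smaller counts: 3 lower and 2 higher at 12 h, 8 lower and 1 higher at 24 h, 12 lower and 2 higher at 36 h, and 12 lower and 1 higher at 48 h. At this threshold the share of all transcripts was computed only for 48 h (15.9% lower and 16.2% higher). The earlier counts therefore cannot be set against the table. Leaving out single libraries gave 15 to 28 lower and 3 to 5 higher at 12 h. For steps within culture it gave 1 to 12 lower and 0 to 1 higher from 12 to 24 h, 0 to 2 lower and 2 to 7 higher from 24 to 36 h, 0 to 1 lower from 36 to 48 h, and 7 to 31 lower and 2 to 5 higher from 12 to 48 h. A fit of only the compared times gave 0 lower and 0 higher from 12 to 24 h, 3 lower from 24 to 36 h and 2 higher from 12 to 48 h, with fewer libraries to estimate the spread. No intensity trend gave 1 lower from 24 to 36 h. Without both 0 h replicate 3 and 12 h replicate 1, the counts were 1 lower and 0 higher from 12 to 24 h, 3 lower and 10 higher from 24 to 36 h, and 15 lower and 2 higher from 12 to 48 h; the cause was not tested.

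With the replicate number as a block, 44 genes were lower and 3 higher at 48 h, 1 was lower from 24 to 36 h, and Chd7 (-0.42, adjusted p = 0.0233) and Ep300 (-0.70, adjusted p = 0.0477) passed at 48 h. Of 26 pairs of libraries with the same number, 11 had deviations correlated above 0.1, against 6 of 52 pairs with different numbers. All 3 pairs exceeded 0.1 between 24 and 36 h and between 24 and 48 h, and not between 0 h and any time in culture. Among the comparisons made, this held only for 24 with 36 h. Pairs with different numbers reached 0.477, so these correlations do not establish that libraries were paired. The Ezh1 change at 48 h, near 0, took the other sign with trimmed-mean scaling (-0.025), without both libraries (-0.0068) and in the range without single libraries (-0.143 to 0.0938). Over the 30 genes given in every library by the rule, 647 of 660 alternative values kept direction and side of the threshold. Depth is unknown, and replicates number 2 or 3, which limits the precision.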

Other observations

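Among the 150 other chromatin genes, the 5 largest called falls and the 5 largest called rises at 48 h were as follows. Jarid2, an accessory subunit of Polycomb repressive complex 2, had scores of 1343, 1685 and 1710 (0 h), 478 and 423 (12 h), 315, 315 and 371 (24 h), 307, 266 and 281 (36 h), 194, 243 and 256 (48 h) and 1328 (tissue). Smarca1, an ISWI-type motor, had scores of 4768, 4314 and 3520 (0 h), 1672 and 1975 (12 h), 1369, 1201 and 1313 (24 h), 939, 970 and 838 (36 h), 746, 855 and 953 (48 h) and 4410 (tissue). All cultured libraries of both lay below those at 0 h, with log2 changes at 48 h of -2.77 ± 0.13 (SE, adjusted p = 2.08e-09) and -2.30 ± 0.12 (SE, adjusted p = 5.68e-09) by limma. Hdac11, the class IV deacetylase, changed by -2.98 ± 0.26 (SE, adjusted p = 4.25e-07), Cbx2, a Polycomb 1 reader, by -1.82 ± 0.14 (SE, adjusted p = 1.82e-07), and Tbl1xr1, a corepressor subunit, by -1.68 ± 0.10 (SE, adjusted p = 1.25e-08). Uhrf1, which guides Dnmt1 to newly copied DNA, changed by -1.34 ± 0.09 (SE, adjusted p = 3.53e-08) and 13 of the 14 proliferation genes were also lower at 48 h, whose part was not tested.

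Pcgf5, a Polycomb 1 subunit, was the largest rise, with scores of 21, 19 and 19 (0 h), 273 and 224 (12 h), 291, 330 and 249 (24 h), 206, 207 and 298 (36 h), 182, 191 and 212 (48 h) and 22 (tissue). It was near the bottom of the scale in fresh cells and tissue and at 182 or more in every cultured library, and it changed by 3.24 ± 0.17 (SE, adjusted p = 4.63e-09) at 48 h. Sirt7, a nucleolar deacetylase, changed by 1.43 ± 0.15 (SE, adjusted p = 2.67e-06), the JmjC-domain protein Kdm8 by 1.01 ± 0.13 (SE, adjusted p = 1.65e-05), Bcl7b, a SWI/SNF subunit, by 0.84 ± 0.08 (SE, adjusted p = 9.43e-07), and Sirt2, a mainly cytoplasmic deacetylase, by 0.82 ± 0.12 (SE, adjusted p = 3.21e-05).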
